A study of Mus musculus with 18 samples.

Results

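The 23 positions described here are the non-palindromic hotspots of activation-induced deaminase (AID) that are followed by a pyrimidine, in the reporter gene mOrangeSTOP. A position belongs to the set if it is a C with A or T 2 bases upstream, A or G 1 base upstream and C or T just downstream, or a G in the reverse complement of that context. The C and the G of the palindrome AGCT were left out. All 23 positions that met this rule had at least 1000 quality-filtered base calls in each of 18 libraries, and they are 23 of the 674 reporter positions that did. The rule used sequence and coverage only, not mutation frequency.

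AID is the enzyme of B cells that deaminates cytosine in DNA to uracil, and it prefers cytosines in the core A/T, A/G, C. Uracil read by a polymerase as it stands gives a transition, C to T, or G to A when the other strand is read. UNG is the glycosylase that removes uracil and leaves an abasic site, where any base can be inserted, so transversions (C to G and C to A) can follow. Ugi is a phage protein that binds and blocks UNG.

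The 23 motifs have 6 forms. AGCC occurs 7 times, AACT 6 times, TGCC 5 times, TACT 3 times, and TACC and TGCT once each, so 13 members are followed by C and 10 by T. Because the kind of transversion below divides along that next base, 5 members followed by T and 4 followed by C are printed. They are a selection that leaves out some of the positions named below. Each window runs 5′ to 3′ on the strand that carries the C, spans 11 bases, and has the 4 motif bases in capitals with the target C as the third of them. All except the window of position 399 and of position 468 are the reverse complement of the coding strand.
Position 93: tcgAACTcgtg
Position 207: gtgAACTgagg
Position 237: gggTGCTtcag
Position 399: accAACTtccc
Position 708: cctTACTtgta
Position 134: gaaAGCCctcg
Position 218: tggAGCCgtag
Position 468: atgTACCccga
Position 602: tgaTGCCgacg
Position 1 is the start of the mOrangeSTOP coding sequence, and since mOrangeSTOP is a transgene these windows have no place in the mouse genome.

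In 16 members the C lies on the complementary strand and in 7 on the coding strand. The C:G pair is the third base of its codon at 12 members, the second at 8 and the first at 3. A transition leaves the encoded residue as it was at 12 members, changes it at 11 and creates a stop codon at 0, whereas it would create a stop at 13 of the 402 other C:G positions whose codon lies wholly within the table. The nearest AGCT base lies 3 to 76 bases away, with a median of 16.

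All libraries were made from NIH-3T3 cells, a line of mouse fibroblasts, not B cells, carrying mOrangeSTOP on a retroviral vector. Besides the reporter the cells received AID-ER, which is AID joined to a ligand-controlled receptor domain, or AID-E58Q-ER, its catalytically inactive form. A further vector was Empty (the Control arm) or carried Ugi or UNG, which gives 6 groups of 3 libraries. All groups were selected with drugs and grown for 11 days with 1 µM OHT, the ligand of the receptor domain. The deaminases, Ugi and UNG were thus supplied from vectors, and no label says that the cells' own UNG was removed. The AID-E58Q libraries give the background, since 25 cycles of PCR before shearing and 10 after add errors of their own. The 3 libraries of a group carry an experiment number, and nothing says that they came from separate transductions, so the p-values here rest on library-to-library spread alone, some of which may be technical.

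Libraries held 24915866 to 95011754 calls in all and a median of 33854 to 131391 at the members. With 3 counts as the floor, a count of 0 at those medians allows a frequency of up to 0.00886% or 0.00228%, from the lowest to the highest median. Coverage was thinnest at position 708, with as few as 1947 calls, at position 689 with 2000 and at position 74 with 4920. PCR products were read without molecular identifiers, so these floors cover counting error alone. Experiment 3 stood apart from the others: it gave the highest transition frequency at 23 of 23 members in both the Control AID and the Ugi AID group, and at 22 in UNG AID. The same held without active AID, at 22 members in Control AID-E58Q, 20 in Ugi AID-E58Q and 18 in UNG AID-E58Q.

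In the AID-E58Q libraries transitions averaged over the 23 members were at 3.80 ± 1.40 per 10000 calls in the Control arm, 3.81 ± 1.35 in the Ugi arm and 4.14 ± 1.36 in the UNG arm (SD, n = 3). The background was uneven. Position 602, a TGCC, stood highest, at 22.2, 19.7 and 20.2 transitions per 10000 in the 3 Control AID-E58Q libraries. Position 689, another TGCC, followed at 12.1, 11.6 and 21.7, and position 392, also a TGCC, at 7.10, 6.53 and 8.00. At the median member the mean was 2.21 per 10000. Transversions in the background were lower and more even, at 1.77 ± 0.08 in the Control arm, 2.03 ± 0.19 in the Ugi arm and 2.08 ± 0.10 in the UNG arm.

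**Figure D1:**
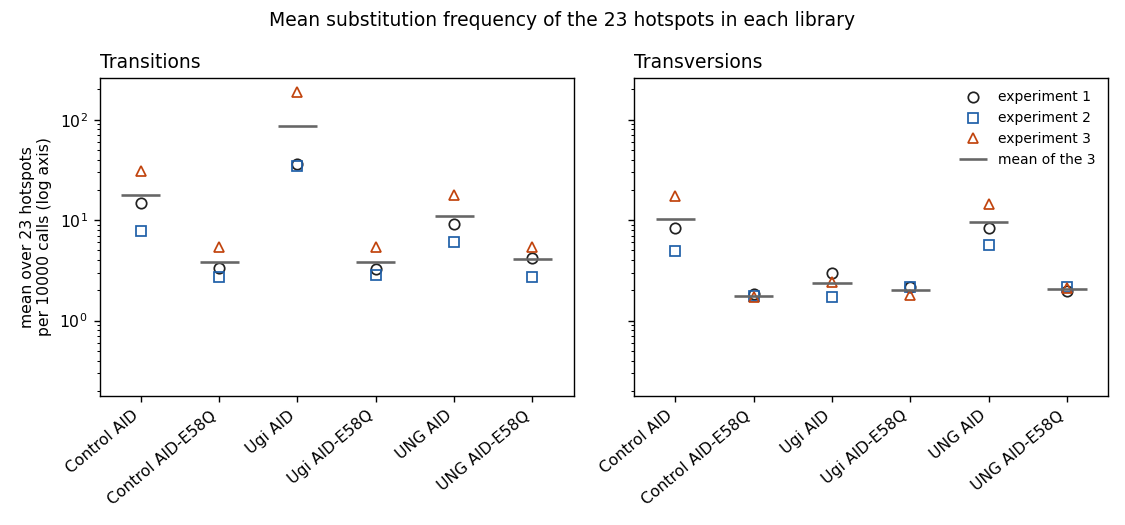
Mean transition (left) and transversion (right) frequency of the 23 hotspots per 10000 calls, on a log axis, for each of the 18 libraries. Symbols are experiments and bars the mean of 3 libraries. Ugi AID stands highest for transitions, at 34.3 to 187.2, and its transversions lie at 1.73 to 2.99, near the AID-E58Q level.

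With AID and the empty vector, 3 hotspots rose in transitions and 8 in transversions. Transitions averaged 14.96, 7.84 and 30.98 per 10000 calls in experiments 1, 2 and 3, a mean of 17.9 ± 11.9 (SD, n = 3) against 3.80 ± 1.40 with AID-E58Q. Position 237, the only TGCT, had 33.9, 28.4 and 90.3 per 10000 with AID and 0.593, 1.43 and 4.62 with AID-E58Q, and all its AID libraries lay above all its inactive ones. Its log2 fold change was 4.49 (SE 1.07, adjusted p = 0.0256 by edgeR's quasi-likelihood test). Position 207, an AACT, had 14.3, 10.4 and 29.3 against 1.40, 0.774 and 2.40 (log2 fold change 3.53, SE 0.87, adjusted p = 0.0331). Position 218, an AGCC, reached 68.5, 17.6 and 87.2 against 5.38, 4.52 and 9.43 (3.16, SE 0.80, adjusted p = 0.0335). These 3 groups of libraries did not overlap, and position 218 had the highest mean of the set, 57.8 per 10000, while position 261, a TACT, had the lowest, 2.67.

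Those 3 were the only members past the threshold for transitions, where 2.52% of all 674 positions passed it. The log2 fold change was above 0 at 23 of 23 members, with a median of 2.60 against 0.27 over all positions. At 11 members the AID libraries lay wholly above the AID-E58Q libraries, where 12.8% of all positions did so. Blocking on the experiment, 16 members passed, against 9.35% of all positions. The count was 1 without Control AID replicate 1, 0 without Control AID replicate 3, 0 without Control AID-E58Q replicate 1, 0 without Control AID-E58Q replicate 2 and 1 without Control AID-E58Q replicate 3. It was 0 without replicate 1 of every group, 0 without replicate 2 and 6 without replicate 3.

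**Figure D2:**
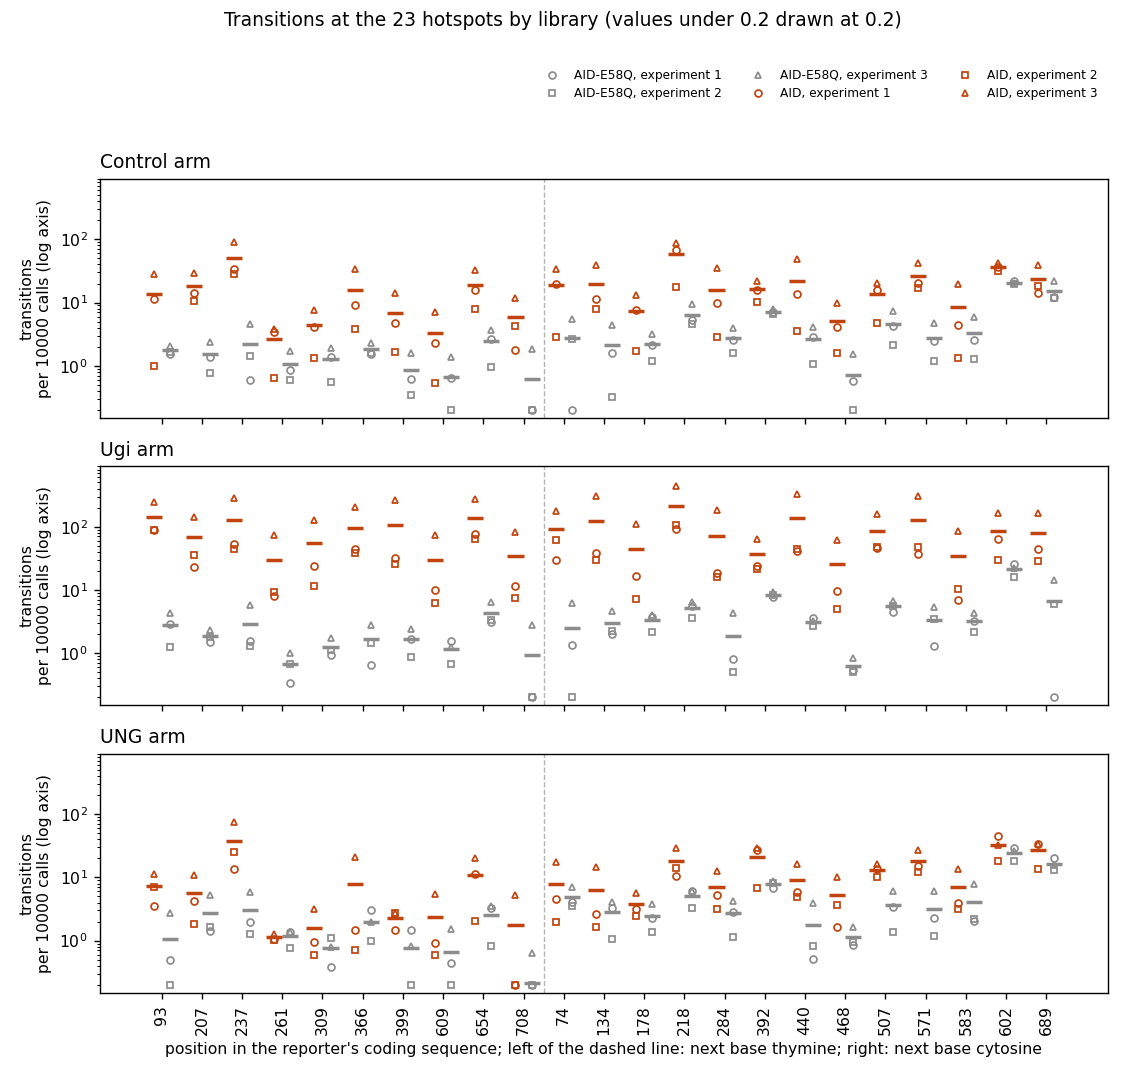
Transitions per 10000 calls (log axis) at each of the 23 hotspots, with 1 panel per arm. Red symbols are AID libraries, grey symbols AID-E58Q libraries, and bars their means. In the Ugi arm all red symbols lie above all grey ones at 23 of 23 hotspots. In the UNG arm this holds at 7.

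Transversions in the Control arm averaged 8.32, 4.90 and 17.28 per 10000 with AID, a mean of 10.2 ± 6.39 (SD, n = 3) against 1.77 ± 0.08. At position 708, a TACT close to the end of the reporter, AID libraries had 7.22, 18.2 and 19.7 per 10000. No transversion was seen there with AID-E58Q in 4701, 3382 and 16308 calls, so the AID mean was at least 12.2-fold higher, against 3 counts over the calls of the whole group (adjusted p = 0.00775, edgeR). Position 237 had 24.4, 11.0 and 45.7 against 2.57, 1.17 and 2.41 (log2 fold change 3.71, SE 0.76, adjusted p = 0.0084). Position 399, an AACT, had 13.9, 2.55 and 29.5 against 1.61, 0.170 and 2.00 (3.55, SE 0.86, adjusted p = 0.0221). The groups did not overlap at any of these 3.

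In all, 8 members passed for transversions: positions 93, 134, 207, 237, 261, 399, 571 and 708. Of all positions 3.41% passed. Of these 8 members 6 are followed by T, as are 10 of the 23, a split made after the values were seen. AID libraries lay wholly above the inactive ones at 14 members, where 13.1% of positions did so, and the median log2 fold change was 2.55 against 0.24 over all positions. With the experiment as a block the count was 15, where 9.05% of positions passed. It was 13 without Control AID replicate 2, 4 without Control AID replicate 3, and 3, 1 and 0 without Control AID-E58Q replicates 1, 2 and 3. Without replicate 1 of every group it was 0, and without replicate 3 it was 2.

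With Ugi, all 23 hotspots rose in transitions with AID and none passed the test for transversions. Transitions averaged 36.4, 34.3 and 187.2 per 10000 in experiments 1 to 3, a mean of 86.0 ± 87.7 (SD, n = 3) against 3.81 ± 1.35. Experiment 3 stood far above the others, and without Ugi AID replicate 3 the mean was 35.3. Position 399, an AACT, had 32.4, 25.5 and 260 per 10000 with AID and 1.66, 0.869 and 2.45 with the inactive form (log2 fold change 5.95 ± 1.15 SE, adjusted p by edgeR 0.00121). Position 366, an AACT, had 43.8, 38.1 and 208 against 0.644, 1.46 and 2.84 (5.81, SE 1.25, adjusted p = 0.00223). Position 93, an AACT, had 87.3, 89.4 and 246 against 2.90, 1.28 and 4.30 (5.57, SE 1.10, adjusted p = 0.00133). At each of these the AID libraries lay wholly above the inactive ones, with experiment 3 the highest.

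All 23 members passed the test for transitions in the Ugi arm, where 22.1% of all positions did, and at all 23 the AID libraries lay wholly above the AID-E58Q libraries, where 22.3% of positions did. Log2 fold changes ran from 1.99 at position 602 to 5.95 at position 399, with a median of 5.19 against 0.68 over all positions. The 3 smallest were those of the TGCC positions 602, 392 and 689, where the background was highest, at 1.99, 2.10 and 3.25. By level, positions 218 and 93 stood highest, at means of 210.5 and 141.0 per 10000. Positions 468, the only TACC, and 609, an AACT, were among the lowest, at 9.59, 4.95 and 62.2 and at 9.91, 6.22 and 73.3. Without replicate 1 of every group no member passed, with adjusted p-values of 0.0606 to 0.0622 at the 3 members named.

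Transversions with Ugi were at 2.99, 1.73 and 2.40 per 10000, a mean of 2.37 ± 0.63 against 2.03 ± 0.19 with AID-E58Q. No member passed (edgeR), as at 0% of all positions, 0 had an unadjusted p under 0.05, and DESeq2 also called 0. The groups separated at 0 members, where 2.67% of positions did so.

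**Figure D3:**
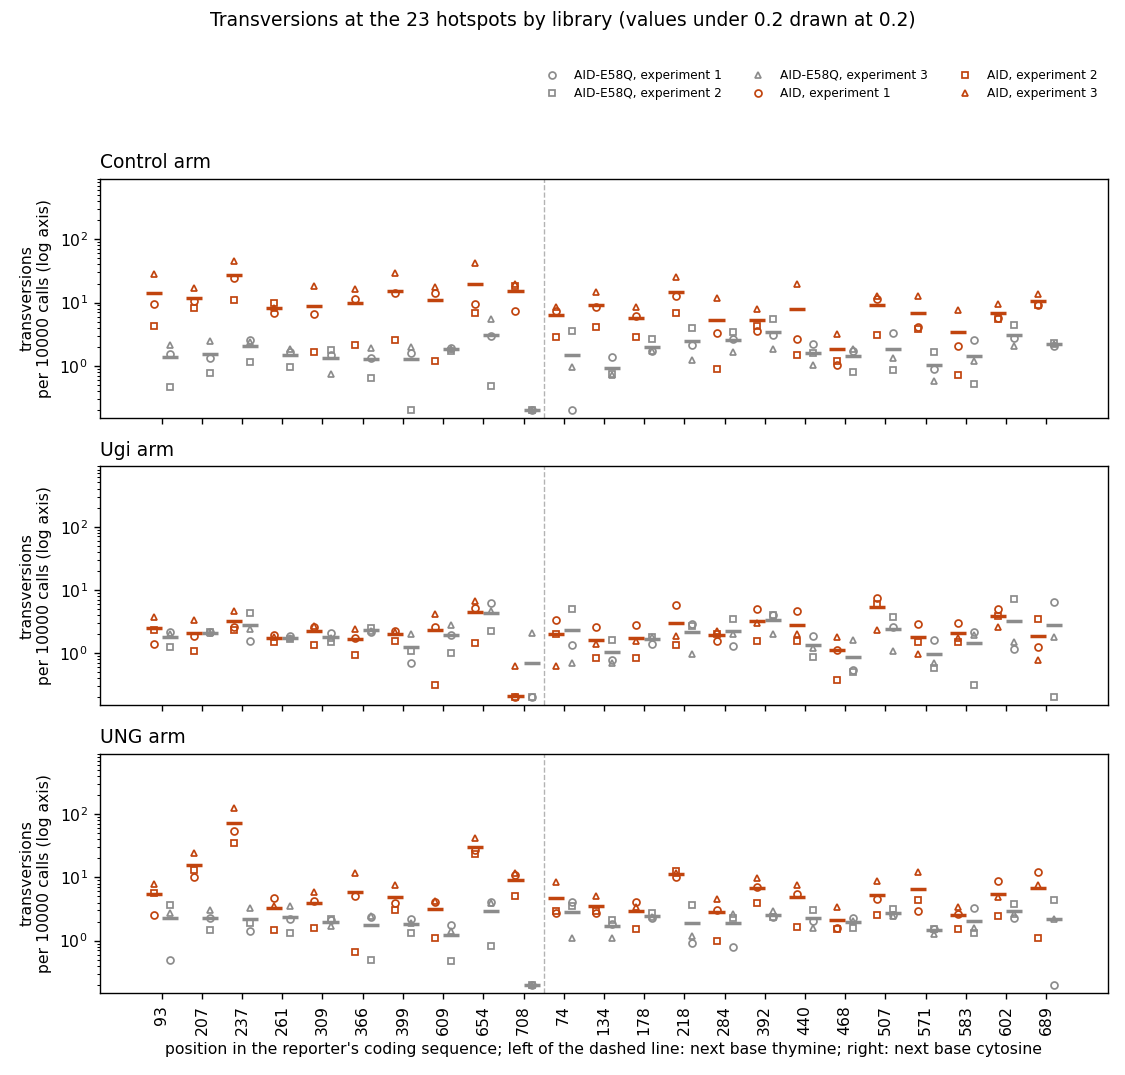
Transversions per 10000 calls (log axis) at each of the 23 hotspots, with 1 panel per arm and symbols as in the plot of transitions. In the Ugi arm red and grey symbols overlap at every hotspot. In the UNG arm position 237 stands highest, with a mean of 71.5.

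With added UNG, 3 hotspots rose in transversions with AID and none passed the test for transitions. Transitions averaged 9.15, 5.996 and 17.99 per 10000 with AID, a mean of 11.0 ± 6.22 (SD, n = 3) against 4.14 ± 1.36. No member passed for transitions by edgeR, as at 0% of all positions, but DESeq2 called 2. The log2 fold change was above 0 at 22 of 23 members, with a median of 1.44 against 0.17 over all positions. At an unadjusted p under 0.05 (edgeR), 9 members were higher and 0 lower, where 38 of all 674 positions were higher and 6 lower. Under the experiment block 7 members passed, where 4.15% of positions did. AID libraries lay wholly above the inactive ones at 7 members, where 7.42% of positions did so. Without replicate 3 of every group 4 passed.

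Transversions in the UNG arm averaged 8.43, 5.68 and 14.50 per 10000 with AID, a mean of 9.54 ± 4.51 against 2.08 ± 0.10. The median over members was lower, at 4.92, and the highest member mean was 71.5, at position 237. Position 237 had 54.2, 35.5 and 124.9 per 10000 against 1.40, 1.93 and 3.23 (log2 fold change 5.01, SE 0.81, adjusted p = 0.00116, edgeR). Position 207 had 10.1, 12.99 and 24.1 against 2.25, 1.45 and 3.06 (2.78, SE 0.67, adjusted p = 0.0218). Position 708 had 10.7, 5.01 and 11.8 against no transversion in 2013, 1947 and 15687 calls, which makes it at least 6.003-fold higher (adjusted p = 0.0218).

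These 3 members, all followed by T, were the only ones past the threshold for transversions in the UNG arm, where 3.12% of positions passed. AID libraries lay wholly above the inactive ones at 9 members, where 8.75% of positions did so. A block on the experiment gave 5 members, where 4.75% of positions did. The count was 1 without UNG AID replicate 3 and 1 without any of the 3 UNG AID-E58Q libraries. It was 0 without replicate 1 of every group and 1 without replicate 2.

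Among AID libraries, transversions fell with Ugi relative to Control at 4 hotspots and transitions rose at 0. Once the experiment was a block, transversions fell at 13 and transitions rose at 20. Transition means in Ugi AID over Control AID were 2.43, 4.37 and 6.04 in experiments 1, 2 and 3, and those of transversions 0.359, 0.354 and 0.139. Log2 fold changes in transitions were above 0 at 23 of 23 members, with a median of 2.41. None passed by edgeR, as at 0% of positions, although 19 members had an unadjusted p under 0.05 and DESeq2 called 13. Shares over all positions are not given for the unadjusted and DESeq2 counts, so those counts alone cannot tell members from other positions. As a block, the experiment number gave 20 members, where 16.6% of positions did. The Ugi AID libraries lay wholly above the Control AID libraries at 8 members, where 6.68% of positions did so. Without Ugi AID replicate 1 the count was 6, without Ugi AID replicate 2 it was 9, without Control AID replicate 3 it was 4, and without replicate 3 of every group 7.

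Transversions fell with Ugi at 4 members, positions 134, 237, 261 and 708, where 2.52% of all positions fell. Position 708 went from 7.22, 18.2 and 19.7 per 10000 in Control AID to 0, 0 and 0.631 in Ugi AID (adjusted p = 0.0257, edgeR). The Ugi AID value rests on 1 transversion in 27974 calls, so the pooled ratio of Control to Ugi, 47.3, has an exact 95% interval for counting error of 8.10 to 1907. Position 237 went from 24.4, 11.0 and 45.7 to 2.63, 2.33 and 4.57 (−3.08, SE 0.74, adjusted p = 0.0393). The Ugi AID libraries lay wholly below the Control ones at 13 members, where 8.31% of positions did so. With the experiment as a block 13 members fell, where 5.79% of positions did. The count was 1 without Control AID replicate 1, 0 without Control AID replicate 3 and 0 without any of the 3 Ugi AID libraries. It was 0 without any of the 3 experiments.

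The interaction, which sets the AID over AID-E58Q ratio of the Ugi arm against that of the Control arm, gave 0 members for transitions (edgeR; unadjusted p under 0.05 at 5, DESeq2 0). For transversions it also gave 0 (unadjusted p under 0.05 at 10, DESeq2 4), where 0.148% of positions passed the adjusted threshold. The unadjusted and DESeq2 counts have no share over all positions beside them, so they cannot tell members from other positions. With the experiment as a block, 5 members passed, all lower with Ugi, where 2.37% of positions did.

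UNG against Control gave no member in either kind, in the AID libraries or in the interaction. For transitions 0% of positions were lower, 1 member had an unadjusted p under 0.05 and DESeq2 called 0. For transversions 0% of positions were lower, 4 members had an unadjusted p under 0.05, all lower with UNG, and DESeq2 called 0. In the interaction 1 member had an unadjusted p under 0.05 for transitions and 2 for transversions, and DESeq2 called 0 of each. These unadjusted counts, too, lack a share over all positions. Transition means in UNG AID over Control AID were 0.611, 0.765 and 0.581 in experiments 1, 2 and 3, below 1 in each. Those of transversions were 1.01, 1.16 and 0.839, whereas at the 13 AGCT bases they were 1.45, 1.67 and 1.76. No test was made of that difference between the sets. Within the set, transversions at position 237 had a log2 fold change of 1.40 (SE 0.69) and at position 399 of −1.67 (SE 0.79), both with an adjusted p of 0.999.

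Ugi was also set against UNG within the AID libraries. Transitions were higher with Ugi at 17 members, where 13.9% of positions were. At each of these 17 the Ugi AID libraries lay wholly above the UNG AID libraries, where 14.4% of all positions did so. The calls and this separation rest on the same values. Position 399 had 32.4, 25.5 and 260 per 10000 with Ugi and 1.46, 2.73 and 2.76 with UNG (log2 fold change 5.51, SE 1.11, adjusted p = 0.00609, edgeR). Position 309, an AACT, had 24.3, 11.6 and 129 against 0.968, 0.584 and 3.17 (5.13, SE 0.98, adjusted p = 0.00565). Transversions were lower with Ugi at 3 members, where 2.97% of positions were. Position 237 had 2.63, 2.33 and 4.57 with Ugi and 54.2, 35.5 and 124.9 with UNG (−4.49, SE 0.79, adjusted p = 0.0051). Position 708 had 0, 0 and 0.631 against 10.7, 5.01 and 11.8 (adjusted p = 0.0246), a pooled ratio of UNG to Ugi of 27.4 with an exact 95% interval for counting error of 4.56 to 1116. Position 207 was the third.

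The count of 17 was 0 without UNG AID replicate 1, 0 without UNG AID replicate 2 and 6 without Ugi AID replicate 3. Without replicate 1 of every group it was 0, and without replicate 2 it was 8. The count of 3 was 1 without Ugi AID replicate 1, 0 without Ugi AID replicate 2 and 1 without UNG AID replicate 3. It was 0 without replicate 1 of every group and 1 without replicate 2. The comparisons of Ugi and UNG with Control share the Control AID libraries.

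The balance between both kinds of substitution can be read as the share of transitions in the excess of AID over background, the mean of 3 AID-E58Q libraries in that arm. Over the 23 members it was 63.0%, 56.4% and 63.7% in Control experiments 1 to 3, a mean of 61.0% ± 4.0 (SD, n = 3). With Ugi it was 97.2%, 101.0% and 99.8%, a mean of 99.3% ± 2.0, where a value above 100% means that transversions lay below background. With UNG it was 44.1%, 34.0% and 52.7%, a mean of 43.6% ± 9.4. The libraries of the 3 arms did not overlap.

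The share was also computed by the next base, a split that nearly coincides with the base before the C: A stands there at 9 of the 10 members followed by T, and G at 12 of the 13 followed by C. Members followed by C had 76.6%, 69.2% and 74.7% transitions in the Control excess, and members followed by T 46.8%, 47.3% and 51.8%. With UNG the shares were 70.3%, 59.0% and 74.3% for a next C and 17.8%, 27.0% and 38.5% for a next T. The libraries of these sets did not overlap in either arm. Position 237, the only member with G before the C and T after it, had 66.7% ± 7.9 in the Control arm (SD, n = 3), against 66.0% ± 7.5 at the TGCC members. In the UNG arm these were 30.9% ± 12.4 and 79.2% ± 7.6. With Ugi the shares were 98.3% ± 2.8 and 100.5% ± 1.8. For single members in the Control arm the share of the mean excess ran from 19.1% at a TACT to 83.3% at an AGCC, leaving out the TACC, whose transversion excess of 0.366 per 10000 was too small for a share. It was under 50% at 6 members, 4 of them AACT and 2 TACT, which have A before the C as well as T after it. That count holds for the mean excess only, since single libraries varied widely. In Control experiments 1 to 3 the share was 91.4%, −7.3% and 78.3% at position 284, the AGCC with 83.3%. At position 74, also an AGCC, it was 74.2%, 11.3% and 81.8%, and at position 261, the TACT with 19.1%, 30.9%, −5.1% and 29.5%. The split by the next base was made after the members' values were seen, so it is a description. The AGCT bases, which have G before the C and T after it, had 62.2% ± 0.4 in the Control arm and 27.8% ± 5.6 in the UNG arm, and the AGCC members 75.9% ± 1.8 and 67.6% ± 3.5.

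The kind of transversion divided along the next base. Read on the strand with the C, the excess at members followed by T was mainly C to G, and at members followed by C mainly C to A. In Control AID, C to G averaged 7.92, 4.99 and 13.69 per 10000 at members followed by T, against 0.799, 0.263 and 0.873 with AID-E58Q. At members followed by C it was 1.19, 0.451 and 1.41 against 0.610, 0.280 and 0.548. C to A stood above background in both sets, at 3.47, 1.61 and 10.6 against 0.844, 0.556 and 1.22 for a next T, and at 4.77, 3.14 and 10.5 against 1.41, 2.17 and 0.867 for a next C.

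On the mean of 3 libraries, the C to G excess was larger than the C to A excess at 10 of 10 members followed by T and at 0 of 13 followed by C in the Control arm. With UNG these counts were 9 of 10 and 0 of 13, position 261 being the exception. Within single experiments, each set against the AID-E58Q library of its own number, the counts were 8, 6 and 8 of 10 for a next T in the Control arm. For a next C they were 2, 6 and 0 of 13, so member by member the division was least clear in experiment 2, whose frequencies were lowest. Over the sets it was there in that experiment too, with C to G at 85.5% of the transversion excess for a next T and −1.7% for a next C, against the mean background. For UNG they were 6, 7 and 9 of 10 and 2, 7 and 0 of 13. C to G made up 72.2% ± 14.1 of the transversion excess in the Control arm for a next T and 8.5% ± 9.8 for a next C. With UNG it made up 65.6% ± 6.3 and 0.8% ± 12.3.

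**Figure D4:**
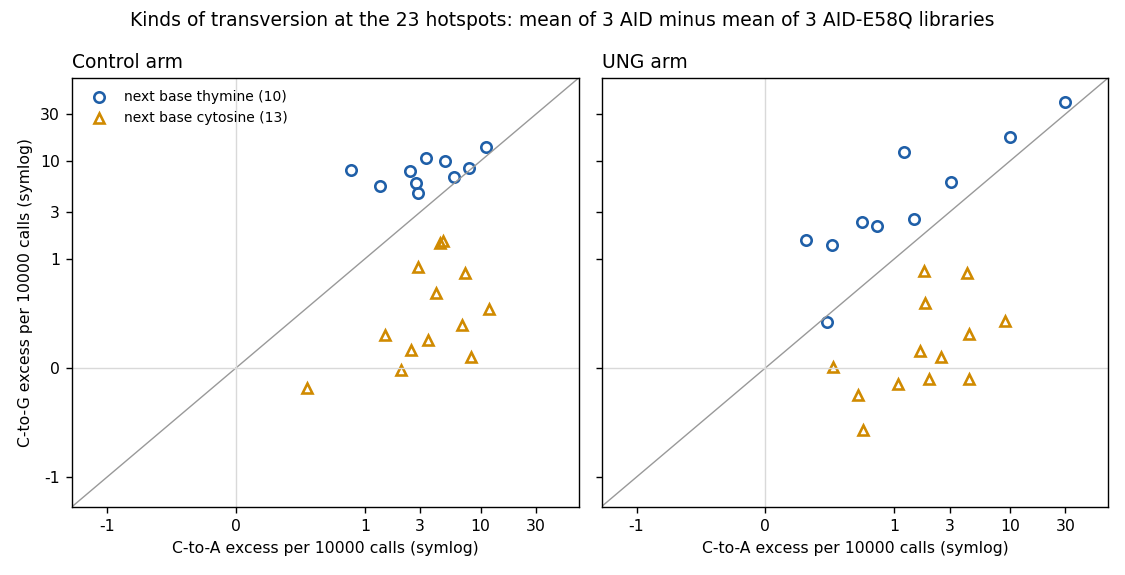
C-to-G against C-to-A excess of AID over AID-E58Q per 10000 calls at each hotspot, on axes that are linear between −1 and 1 and logarithmic beyond, with the diagonal of equal excess. Circles are the 10 hotspots with thymine next and triangles the 13 with cytosine next. In the Control arm all 10 circles lie above the diagonal and all 13 triangles below. In the UNG arm 9 circles lie above it.

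The cores AGC, TGC and TAC each occur with both next bases. AGC followed by C had a C to G share of 9.2% ± 8.2 in the Control arm, and AGC followed by T, the AGCT bases, 85.1% ± 7.6. Position 237, TGC followed by T, had C to G at 15.1, 9.44 and 18.4 per 10000 and C to A at 9.31, 1.58 and 27.3. In Control experiments 1 to 3, C to G made up 65.6%, 100.4% and 41.1% of its transversion excess. C to A was thus the larger in experiment 3. With UNG the shares of C to G were 72.0%, 59.1% and 49.7%. The 5 TGC members followed by C averaged 1.34, 0.579 and 0.885 for C to G and 3.93, 3.89 and 8.47 for C to A. Position 468, TAC followed by C, was too close to background for a share, at 0.694 C to G per 10000 against 0.879. The 30 hotspot cores followed by a purine lay between, with a C to G share of 31.6% ± 11.4.

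Fitted separately over the 426 C:G positions, C to G rose with AID at 11 members in the Control arm, where 8.45% of these positions did. They were 10 of the 10 members followed by T and 1 of the 13 followed by C, position 134. C to A rose at 8 members, where 4.93% did, of which 5 are followed by T and 3 by C. At position 237 C to G had a log2 fold change of 4.99 and an adjusted p of 5.4e-05, and at position 207 of 3.58 with an adjusted p of 0.000159 (edgeR). In the UNG arm C to G rose at 4 members, all followed by T (positions 207, 237, 654 and 708), where 6.57% did, and C to A at 2 (positions 237 and 654), where 3.99% did. This separate fit was added after the data had been seen.

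The Control count of 11 for C to G was 7 without Control AID-E58Q replicate 1, 6 without Control AID-E58Q replicate 2 and 6 without Control AID replicate 3. It was 4 without replicate 1 of every group and 7 without replicate 3. The count of 8 for C to A was 0 without Control AID replicate 3, 0 without any of the 3 Control AID-E58Q libraries and 13 without Control AID replicate 2. It was 0 without replicate 1 of every group, 13 without replicate 2 and 0 without replicate 3. The UNG count of 4 for C to G was 2 without UNG AID-E58Q replicate 2 or 3 and 2 without replicate 1 or 3 of every group. The UNG count of 2 for C to A was 0 without UNG AID replicate 3, 0 without any UNG AID-E58Q library, and 0 without replicate 1 or 3 of every group.

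Members kept much of their order between arms. Over the 23 members, mean transitions with AID in Control and Ugi had Pearson's r of 0.73 and Spearman's rho of 0.70, and those in Control and UNG 0.79 and 0.86. Transversions in Control and UNG had 0.81 and 0.67. The transition excess with Ugi ran with the summed excess of both kinds in Control, at 0.77 and 0.84. The distance to the nearest AGCT base bore little relation to the Ugi excess, at 0.16 and 0.18. These are descriptions without a test, because members of a library share its depth, its PCR and its reporter molecules. The background had an order of its own, with 0.92 and 0.90 for transitions in the AID-E58Q libraries of Control and Ugi. The correlations of mean frequencies with AID include that background. Positions 602, 689 and 392, which had the highest background, ranked 2, 3 and 4 for transitions in UNG AID.

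Levels at the other hotspot bases are given for comparison. With AID and Ugi, transitions averaged 86.0 per 10000 at the members, 225.7 at the 13 AGCT bases and 46.5 at the 30 cores followed by a purine. With the empty vector these were 17.9, 74.8 and 14.4. Transversions in Control AID were 10.2, 46.9 and 5.16, and in UNG AID 9.54, 77.5 and 6.25. These differences between sets were not tested.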

How the data were processed

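What the authors deposited is a table of counts: per the file headers it holds, at each reporter position of each library, the base calls above Phred 20 and how many of them were each substitution. CASAVA 1.7, Novoalign 2.07.04 and SAMtools 0.1.11 are named, without roles, in the submitters' processing notes. How reads were aligned is not given in the sources used here.

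Transitions and transversions were summed at every position that had 1000 or more calls in each of 18 libraries (674 of 679). A quasi-likelihood model (edgeR 4.0.16 in R 4.3.3) with a mean per group was fitted over the 18 libraries, log coverage serving as offset. The Benjamini-Hochberg adjustment ran over all positions fitted, with a threshold of 0.05. C to G and C to A were fitted alike over the 426 C:G positions, a fit added after the data were seen. A printed SE is the log2 fold change divided by the square root of F, an approximation. The fit was tried on simulated counts drawn independently for each library, with no effect of experiment. That trial does not cover data whose experiments differ, as these do.

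In each arm AID was compared with AID-E58Q, the arms were compared within AID, and the interactions were fitted. Alternatives were the experiment as a block, TMM factors, DESeq2 1.42.0, coverage minimums of 5000 and of none, only the compared groups, and leaving out each library or experiment. Apart from the block, member counts from alternatives, and most at an unadjusted p, lack a share over all positions. Such counts alone cannot say whether members differ from other positions. The titles call the replicate number an experiment. Deviations of same-numbered libraries from their group means correlated above 0.1 in all but 2 of the pairs for transitions (lowest 0.0298). For transversions they did so in all pairs. The number was therefore taken to pair libraries in the block fit, but the main fit ignored that pairing. Identical calls or transitions were found in 0 pairs of libraries. The lowest chi-square per position between libraries of a group was 1.25, for Ugi AID-E58Q 1 and 2. Pairs of AID libraries of a group had 10.6 to 165.7. The value of 1.25 is close to counting error alone and cannot show that the libraries were separate preparations.

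Named positions are, per arm, the 3 with the largest fold change among those past the threshold and without overlap, for each kind. For AID libraries they are the 2 largest in each direction, and by level in Ugi AID the 2 highest and 2 lowest. Other positions were singled out after their values were seen. Members and lists were chosen with earlier results of these data known.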

Additional observations from a re-analysis of the deposited data

How the results depend on the processing

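Counts of called members depended on the fit, and 0 results reversed. With the experiment as a replicate block, the members called were 16 for Control transitions (from 3), 15 for Control transversions (from 8), 7 for UNG transitions (from 0), 5 for UNG transversions (from 3), 20 for Ugi over Control in transitions (from 0), 13 in transversions (from 4), and 5 for the Ugi interaction in transversions (from 0). The block changed no other count by more than 1.5 times. TMM factors gave 8 for Control transitions, 3 for UNG transitions, 6 for Ugi over Control transitions and 0 for Control C to A. DESeq2 gave 11 for Control transitions, 2 for UNG transitions, 13 and 8 for Ugi over Control transitions and transversions, and 4 for the Ugi interaction in transversions. With only the compared groups in the fit, which leaves fewer libraries to estimate the spread, counts were 7 for Control transitions, 0 for Control transversions, 0 for Control C to A, 1 each for UNG transitions, UNG transversions and UNG C to A, 0 for Ugi over Control transversions, and 0 and 1 for Ugi over UNG transitions and transversions. A coverage minimum of 5000, which drops 3 members, left 2 for Ugi over Control transversions.

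Leaving out each library or experiment gave 0 to 6 for Control transitions, 0 to 13 for Control transversions, 4 to 13 for Control C to G, 0 to 13 for Control C to A, 0 to 23 for Ugi transitions, 0 to 4 for UNG transitions, 0 to 3 for UNG transversions, 2 to 4 for UNG C to G and 0 to 3 for UNG C to A. Between AID libraries it gave 0 to 9 and 0 to 4 for Ugi over Control transitions and transversions, and 0 to 20 and 0 to 3 for Ugi over UNG. The cause of these moves was not tested.

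The median over members in place of the mean gave, per 10000 calls, transitions of 2.28 in Control AID-E58Q and 2.51 in UNG AID-E58Q. For transversions it gave 1.57 in Control AID-E58Q, 1.80 in Ugi AID-E58Q, 2.18 in UNG AID-E58Q and 4.92 in UNG AID, and the coverage minimum of 5000 gave a mean of 1.85 in Control AID-E58Q. The transition shares kept their order between arms when any library was left out, at 59.7% to 63.3% for Control, 98.5% to 100.4% for Ugi and 39.0% to 48.4% for UNG. Depth limits position 708 most, where 2 AID-E58Q libraries held about 2000 calls each.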
